A study of Arabidopsis thaliana with 19 samples.

Results

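The comparison described here is that of Arabidopsis thaliana seedlings overexpressing MYB76 (MYB76_OE, 2 arrays) with the wild type seedlings of the same experiment (titled WT_for_MYB29/76, written WT_MYB29_MYB76 here, 3 arrays). Its members are these 5 of the 19 Affymetrix ATH1 arrays of the series, chosen by their titles, and all probe sets on them that are not controls of the array. Both groups were shoots of seedlings aged 14 days, without cotyledons and hypocotyls, kept at 20 °C in short days (10 h light, 14 h dark). The same 3 wild type arrays also serve as the control of seedlings overexpressing MYB29 (MYB29_OE, 2 arrays). A second experiment held seedlings overexpressing ATR1 (ATR1_OE, 2 arrays) or MYB51 (MYB51_OE, 2 arrays) and its own wild type (WT_ATR1_MYB51, 2 arrays), and the remaining experiment held artificial microRNA seedlings with wild type WT_miR (2 arrays). The promoter of the MYB76 construct, the accession of the plants and the number of independent lines are not given in the sources used here. Nor do the labels say that replicates came from separate cultures, so each p-value rests on array-to-array spread that may be only technical.

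MYB76 belongs to a small group of R2R3-MYB transcription factors, with MYB28 and MYB29, that are known in Arabidopsis as activators of aliphatic glucosinolate synthesis. Aliphatic glucosinolates are sulfur-rich defence compounds made from methionine: the amino acid chain is elongated, the glucosinolate core is built with sulfur from glutathione and an activated sulfate group, and the side chain is then modified. ATR1 and MYB51 are known as activators of the indole glucosinolates, which are made from tryptophan and share the sulfur supply and part of the core pathway. The probe sets for these regulators are unnamed in the annotation used here, so the rise of MYB76 itself was not checked.

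Plastid-encoded transcripts set the wild type arrays apart. The median log2 signal of the 68 plastid-encoded probe sets was 4.99 and 5.23 on the MYB76_OE arrays, against 11.34, 9.97 and 8.08 on the WT_MYB29_MYB76 arrays. On the 4 arrays of wild type from elsewhere in the series it lay between 4.64 and 6.4, next to the MYB76_OE values. Of the other groups, the 4 artificial microRNA arrays were as high as the wild type of this experiment (9.46 to 10.88), and the overexpression arrays were not (5.14 to 6). The 3 wild type arrays were also less alike: the median SD of a nuclear probe set was 0.12 on the log2 scale between the MYB76_OE arrays and 0.313 between the wild type arrays. Plastid-encoded signal therefore moves with the comparison, and its part in the nuclear differences was not tested. Beside the nuclear genes described, values are also given against the 4 wild type arrays WT_ATR1_MYB51 and WT_miR, called the other wild type arrays. That alternative was chosen after the data were seen. It takes the average of the WT_ATR1_MYB51 and WT_miR means. These differ widely for some genes, so a small change there can average opposite differences. Values are also given from a fit that holds each array's plastid-encoded signal as a covariate. Plastid-encoded genes are described apart. Of the leaf markers only RCA, the Rubisco activase, was named, with a signal of 8956 and 8713 in MYB76_OE against 9439, 9657 and 10570 in wild type. The root hair expansin EXPA7 had a signal of 21.5 and 11 in MYB76_OE against 57.2, 24.7 and 8.59 in wild type, the lower MYB76_OE array and the lowest wild type array being at the floor of their arrays. No flower or seed storage marker was named, and the 1 named shoot meristem marker was not tested, so those markers check nothing here.

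Over all genes, 15630 probe sets were tested with limma, and 1994 of them (12.8%) were called changed at an adjusted p under 0.05, 1118 higher (7.15%) and 876 lower (5.6%) in MYB76_OE. Among the 8498 probe sets of single nuclear genes, 1004 (11.8%) were called, 561 higher (6.6%) and 443 lower (5.21%), and 274 of the rises and 268 of the falls were at least 2-fold. The count rests on few arrays. It was 157 without MYB76_OE replicate 1, 178 without replicate 2 and 649 without wild type replicate 1, and 108 nuclear probe sets (1.27%), 58 higher and 50 lower, were called in the fit and in each of the 5 fits that left out 1 array. Against the 4 other wild type arrays 249 nuclear probe sets were called, 114 higher (1.34%) and 135 lower (1.59%), and 151 of them, 84 higher and 67 lower, were called in the same direction as against WT_MYB29_MYB76. With plastid-encoded signal as a covariate 58 nuclear probe sets were called, 37 higher and 21 lower. As this signal moves with the comparison, that fit can hardly separate them, and a lost call does not show that a change was absent. Where calls were lost, some log2 changes grew, as for BCAT4 (2.36 to 5.63) and LTI30 (3.59 to 7.35). Others shrank, as for CBL (1.84 to 1.11) and MSRB6 (-3.88 to -1.3). All signals are MAS5 values on a scale that the authors set for each array, and a fold change is a difference of group means on the log2 scale after values below each array's 20th percentile (12.8 to 16.7 on these 5 arrays) had been raised to that floor. In whole shoots, a change in the number of cells of a type and a change of RNA per cell cannot be told apart.

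All tested genes of aliphatic glucosinolate synthesis rose. They were 1 of the 10 listed genes of chain elongation and import, 2 of the 8 of the core structure and 2 of the 9 of side chain modification, and each of these tested genes was called higher, where 6.6% of nuclear probe sets were. These lists repeat a pattern that was known when they were drawn up, and are not independent evidence of it. BCAT4, the aminotransferase that begins chain elongation of methionine, had a signal of 7116 and 7131 in MYB76_OE against 1563, 2176 and 791 in wild type. The MYB76_OE arrays thus lay close together above a spread-out wild type. On the log2 scale the rise was 2.36 ± 0.71 (SE), or 5.12-fold (limma adjusted p = 0.0411). This call was lost when either MYB76_OE array or wild type replicate 1 or 3 was left out (log2 change 1.95 to 2.68). The change was 4.66 against the other wild type arrays (limma adjusted p = 0.000709), which were unlike each other. BCAT4 had a mean signal of 48.89 in WT_ATR1_MYB51, with 1 of 2 arrays at the floor, and 2408 in WT_miR. The size of 4.66 thus rests largely on WT_ATR1_MYB51.

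Of the core genes, AT2G31790 (UGT74C1), a glucosyltransferase, had 3416 and 3175 in MYB76_OE against 722, 1197 and 744 in wild type, without overlap. Its log2 change was 1.93 ± 0.31 (SE), a 3.82-fold rise (limma adjusted p = 0.000909). GSTU20, a glutathione transferase of the core pathway, had 6227 and 7163 in MYB76_OE against 2565, 3165 and 1022 in wild type, a rise of 3.3-fold (limma adjusted p = 0.00871) that was lost without either MYB76_OE array (adjusted p = 0.0693 and 0.0931). UGT74B1, the glucosyltransferase shared by aliphatic and indole glucosinolates, had 1119 and 1350 in MYB76_OE against 508, 750 and 315 in wild type. It was 2.49-fold higher (limma adjusted p = 0.0275), but not called without either MYB76_OE array or wild type replicate 1 or 3 (adjusted p up to 0.194), nor against the other wild type arrays (log2 1.15, limma adjusted p = 0.0821).

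Both tested side chain genes rose. AOP3, an oxygenase that makes hydroxyalkyl glucosinolates, had a signal of 9168 and 9297 in MYB76_OE against 943, 1224 and 589 in wild type. Both MYB76_OE values exceeded every wild type value several times over, a log2 change of 3.39 ± 0.34 (SE), or 10.5-fold (limma adjusted p = 1.13e-05). AT2G25450 (GSL-OH), an oxygenase that hydroxylates alkenyl glucosinolates, had 368 and 388 in MYB76_OE against 16.3, 0.936 and 17.2 in wild type. As 2 of the 3 wild type arrays were at the floor, it was at least 24.5-fold higher (limma adjusted p = 1.33e-07). Both genes were called in all 5 fits without 1 array, and against the other wild type arrays they changed by 3.49 and 4.49 on the log2 scale, where AT2G31790 (2.29) and GSTU20 (1.74) were called too. With the plastid covariate AOP3, AT2G25450, GSTU20 and UGT74B1 were called (limma adjusted p 0.00499 to 0.0419), whereas BCAT4 (log2 5.63, 0.0636) and AT2G31790 (2.63, 0.0818) were not.

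**Figure D1:**
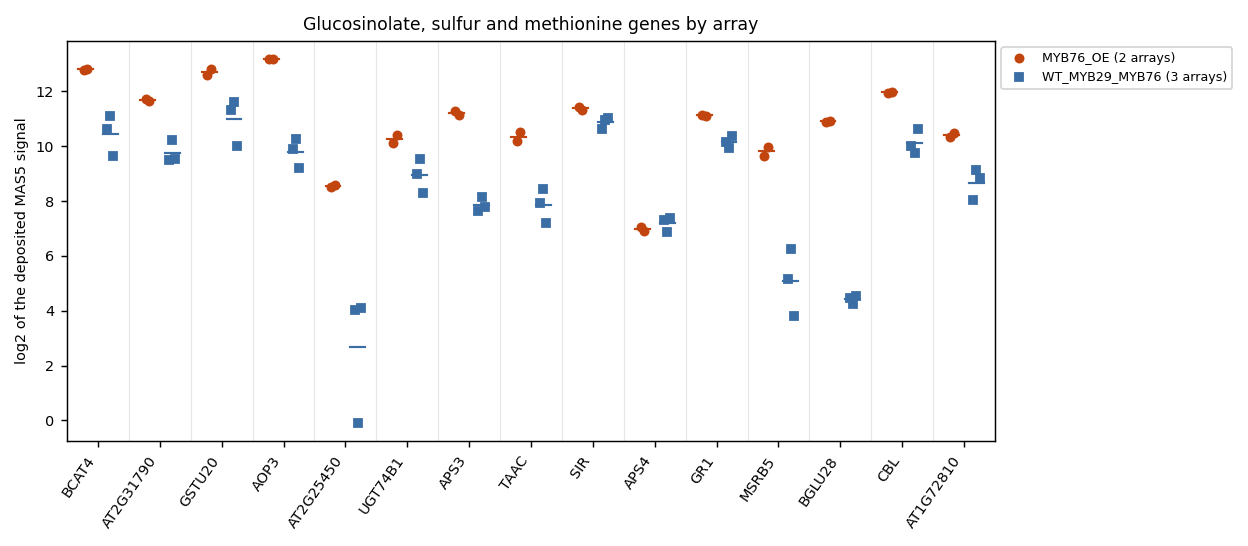
Log2 of the deposited signal of 15 glucosinolate, sulfur and methionine genes on each array (points) with group means (bars), MYB76_OE left and WT_MYB29_MYB76 right in each column. For every gene but APS4 both MYB76_OE arrays lie above all 3 wild type arrays, and for AT2G25450 wild type replicate 2, at 0.936, lies far below the floor.

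Genes that supply activated sulfur also rose, though not all of them. Of 22 listed genes of sulfate uptake and assimilation 4 were tested and 2 were called higher (6.6% of nuclear probe sets were), with a list median of 1.5 on the log2 scale against 0.04 over all nuclear probe sets. APS3, an ATP sulfurylase that activates sulfate, had 2520 and 2268 in MYB76_OE against 197, 284 and 218 in wild type. The log2 change was 3.38 ± 0.31 (SE), or 10.4-fold (limma adjusted p = 5.07e-06), and every fit without 1 array called it. TAAC (AT5G01500), a plastid envelope and thylakoid carrier also known as PAPST1 that exports activated sulfate from plastids, had 1161 and 1453 in MYB76_OE against 242, 350 and 146 in wild type, and rose 5.62-fold (limma adjusted p = 0.000829). Both were also called against the other wild type arrays (log2 3.11 for APS3 and 1.5 for TAAC) and with the plastid covariate (limma adjusted p = 0.0144 for each). The sulfite reductase SIR had 2784 and 2572 in MYB76_OE against 1564, 2004 and 2102 in wild type. Its groups did not overlap, yet the log2 change of 0.51 was not called (limma adjusted p = 0.105), whereas it was called against the other wild type arrays (0.93, limma adjusted p = 0.0114). APS4, another ATP sulfurylase gene, had overlapping groups and a log2 change of -0.22 (limma adjusted p = 0.511). GR1, a glutathione reductase, had 2258 and 2197 in MYB76_OE against 1140, 969 and 1316 in wild type, a 1.97-fold rise (limma adjusted p = 0.028) that held in 1 of the 5 fits without 1 array, that without wild type replicate 3, and was not called against the other wild type arrays (log2 0.56, limma adjusted p = 0.291) or with the plastid covariate (0.423).

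The largest rise among named nuclear genes was that of BGLU28, a beta-glucosidase gene known as a marker of sulfur limitation. Its signal was 1881 and 1949 in MYB76_OE against 22.35, 18.97 and 23.48 in wild type, which placed the wild type just above the floor. The log2 change was 6.48 ± 0.30 (SE), or 89-fold (limma adjusted p = 6.81e-09). MSRB5, a methionine sulfoxide reductase that was listed with it among the markers of sulfur limitation, had 809.6 and 999 in MYB76_OE against 35.6, 75.8 and 14 in wild type. It was 25.3-fold higher (limma adjusted p = 2.39e-05), a size that depends on the floor in part because 1 wild type array lay there. Both held in all 5 fits without 1 array and against the other wild type arrays (6.2 and 4.96 on the log2 scale), and with the plastid covariate (limma adjusted p = 0.00048 and 0.00225). BGLU15, the neighbour of BGLU28 in locus number and another beta-glucosidase, rose 4.41-fold (limma adjusted p = 0.000829). It was called against the other wild type arrays (log2 1.21, limma adjusted p = 0.0465) but not with the plastid covariate (1.45, 0.369). The other 8 of the 10 tested beta-glucosidases were not called, where 11.8% of nuclear probe sets were called.

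Methionine genes moved in part. Of 18 listed genes 5 were tested and 2 were called higher, where 6.6% of nuclear probe sets were, with a median of 1.04 on the log2 scale. CBL, the cystathionine beta-lyase of methionine synthesis, had 3959 and 4067 in MYB76_OE against 1022, 868 and 1599 in wild type, and rose 3.57-fold (log2 change 1.84 ± 0.24, SE; limma adjusted p = 0.000194). AT1G72810, a gene of the threonine synthase family, had 1285 and 1434 in MYB76_OE against 264, 555 and 454 in wild type, a rise of 3.35-fold (limma adjusted p = 0.000414). Neither gene had overlapping groups, and both were called in every fit without 1 array and against the other wild type arrays. The plastid covariate ended both calls, with log2 changes of 1.11 for CBL (limma adjusted p = 0.317) and 0.88 for AT1G72810 (0.443). MGL, the methionine gamma-lyase, differed by 1.04 on the log2 scale without being called (limma adjusted p = 0.0869), and by 1.23 against the other wild type arrays (0.0819). HMT-1 (log2 0.48) and MMT (log2 0.27), methyltransferases of the methionine cycle, were not called. In a list of aspartate family and methionine salvage genes that was added after values were seen, all 3 tested genes rose. Beside AT1G72810 these were AT1G14810, the aspartate semialdehyde dehydrogenase, which rose 2.15-fold (limma adjusted p = 0.00365), and AT4G33150, the bifunctional lysine-degrading enzyme, which rose 2.1-fold (limma adjusted p = 0.0332). Neither held throughout: AT1G14810 missed the threshold without MYB76_OE replicate 2 (limma adjusted p = 0.0513), and AT4G33150 without any array but wild type replicate 1 (up to 0.182) and against the other wild type arrays (0.0583). AT1G50110 (BCAT6), a branched-chain aminotransferase, was 2.33-fold higher (limma adjusted p = 0.0294), called in 1 of the 5 fits without 1 array (that without wild type replicate 2), and had a log2 change of 0.33 against the other wild type arrays. With the plastid covariate AT1G14810, AT4G33150 and AT1G50110 were not called (limma adjusted p 0.28 to 0.427).

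Genes of neighbouring glucosinolate functions were not called higher. AT2G04400, the indole-3-glycerol phosphate synthase of tryptophan synthesis, had 874.6 and 777 in MYB76_OE against 495, 741 and 455 in wild type, a log2 change of 0.58 that was not called (limma adjusted p = 0.0902), though it was without wild type replicate 2 (0.0152). Its log2 change was 0.19 against the other wild type arrays. The 3 tested genes of glucosinolate breakdown and transport gave 0 limma calls and 0 at an unadjusted p under 0.05. Among them were the transporters GTR1 (log2 -0.63) and GTR2 (log2 -0.02). The same held for the 3 ER body genes. PYK10, the myrosinase of these bodies and a member of both lists, had a log2 change of -0.22. As 11.8% of nuclear probe sets were called, 0 calls in lists this short say little about these genes. MYC4, a bHLH partner of the glucosinolate MYB factors, fell to 28.4 and 52.4 in MYB76_OE, against 120, 87 and 98.1 in wild type, by 1.38 on the log2 scale (limma adjusted p = 0.0196). Without MYB76_OE replicate 1, the lower array, its adjusted p was 0.262, and without wild type replicate 1 it was 0.0594. It was called against the other wild type arrays (-1.43, limma adjusted p = 0.0256) and not with the plastid covariate (-0.8, 0.678). MYC3, its relative, had overlapping groups and a log2 change of -0.49 (limma adjusted p = 0.171).

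**Figure D2:**
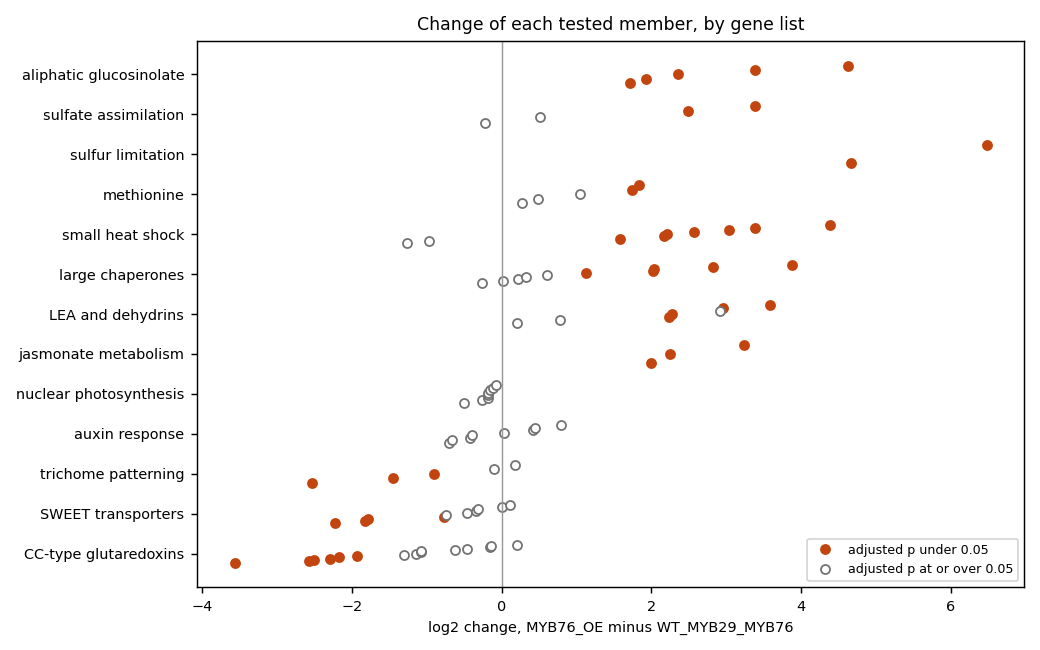
Log2 change of MYB76_OE minus WT_MYB29_MYB76 (x axis) for each tested member of 13 gene lists (rows), filled where the limma adjusted p was under 0.05. Filled points stand right of 0 for aliphatic glucosinolate, sulfur, heat shock, LEA and jasmonate genes, left of 0 for trichome, SWEET and glutaredoxin genes, and are absent for nuclear photosynthesis and auxin response genes.

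Heat shock genes rose without any heat treatment being named in the labels. Small heat shock proteins bind unfolding proteins and are known to be induced by heat through heat shock factors. The list of them was added after the first heat shock genes had been seen among the largest rises, so its counts describe and do not test. Of 18 listed genes 9 were tested and 7 were called higher, with a median of 2.21 on the log2 scale, where 6.6% of nuclear probe sets were called higher. The same number, 7, was called higher against the other wild type arrays, where 1.34% of nuclear probe sets were. AT2G29500 had 345 and 292 in MYB76_OE against 2.25, 2.48 and 11.6 in wild type, all 3 at the floor, and was at least 20.8-fold higher (limma adjusted p = 5.53e-07). AT5G51440 had 157 and 184 in MYB76_OE against 11.6, 15.3 and 6.16 in wild type, of which 2 were at the floor, and was at least 10.5-fold higher (limma adjusted p = 9.01e-05). AT1G53540, a class I small heat shock protein, had 249 and 217 in MYB76_OE against 32.2, 26.9 and 26.1 in wild type. That rise was 8.22-fold (limma adjusted p = 9.92e-06), with narrow and well separated groups. The others were AT1G54050 (5.93-fold), AT5G37670 (4.63-fold), ATHSP22.0 (4.51-fold) and AT1G52560 (at least 3-fold, 2 of 3 wild type arrays at the floor), with limma adjusted p between 0.000861 and 0.0166. ATHSP22.0 and AT1G52560 missed the threshold without either MYB76_OE array (adjusted p 0.0691 to 0.137), and the other 5 were called in all 5 fits. The tested members that were not called, AT4G21870 and AT5G54660, had lower means in MYB76_OE, by -1.26 and -0.97 on the log2 scale (limma adjusted p = 0.111 and 0.0684).

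Chaperones outside that family were called less evenly. Of the 10 tested large chaperones and co-chaperones, a list also added after values were seen, 5 were called higher (6.6% of nuclear probe sets were). AT5G48570 (ROF2), an FKBP-type isomerase that binds HSP90, had 306.5 and 331 in MYB76_OE against 21.67, 28.15 and 11.78 in wild type, a rise of 14.7-fold (limma adjusted p = 2.45e-06) that depends in part on the floor, where 1 wild type array lay. AT2G20560, a DnaJ family gene, rose 7.05-fold (limma adjusted p = 0.00468, and 0.0639 without MYB76_OE replicate 2). Fes1A, an exchange factor of cytosolic HSP70, had 735 and 721 in MYB76_OE against 162, 219.7 and 158 in wild type, and rose 4.09-fold (limma adjusted p = 4.87e-05). Cpn60beta3, a plastid chaperonin subunit, rose 4.07-fold (limma adjusted p = 7.36e-05). Hop3, a co-chaperone that links HSP70 and HSP90, was 2.18-fold higher (limma adjusted p = 0.0494), a call that no fit without 1 array kept (0.0646 to 0.333). The constitutive HSP70 genes did not pass: Hsp70-2 had a log2 change of 0.02 and AT3G09440 of -0.27, both with overlapping groups. All of the 5 but Hop3 were also called against the other wild type arrays. Of the 12 called heat shock and chaperone genes, AT2G29500, AT1G53540 and AT5G48570 were called with the plastid covariate (limma adjusted p = 0.0184, 0.0411 and 0.00865), and the other 9 were not (0.0517 to 0.769).

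**Figure D3:**
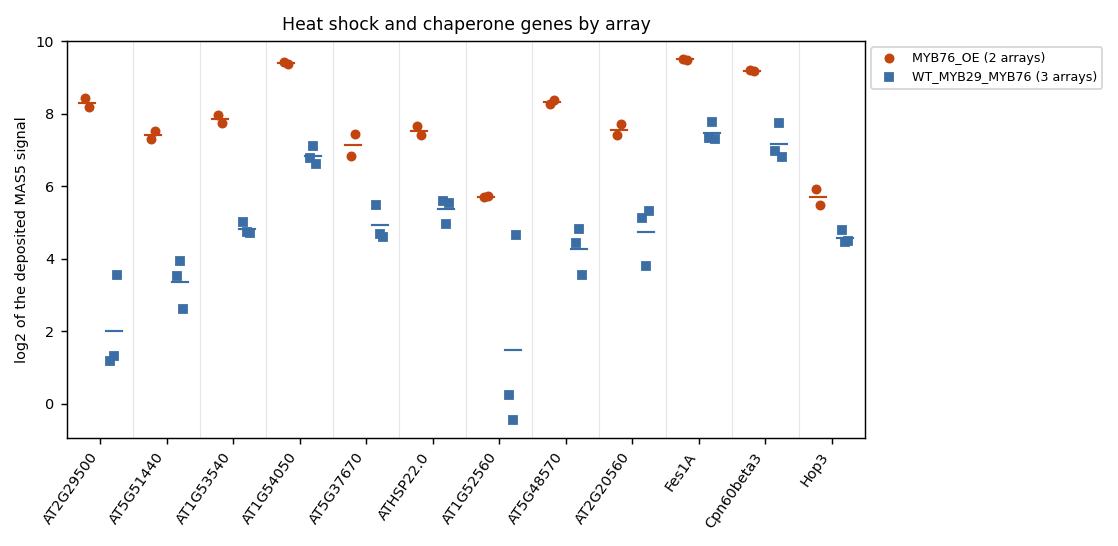
Log2 of the deposited signal of the 12 called heat shock and chaperone genes on each array (points) with group means (bars), MYB76_OE left and WT_MYB29_MYB76 right in each column. In every column both MYB76_OE arrays lie above all 3 wild type arrays, and wild type values lie at or below the floor on 3 arrays for AT2G29500, 2 for AT5G51440 and AT1G52560, and 1 for AT5G48570.

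Some genes known from dehydration rose. LEA proteins and dehydrins are hydrophilic proteins that accumulate in drying tissue, and 4 of their 7 tested genes were called higher (list added after values were seen, median 2.28 on the log2 scale), where 6.6% of nuclear probe sets were. Of the 4 tested cold response genes 1 was called, the dehydrin LTI30. LTI30 had 757 and 617 in MYB76_OE against 73.4, 63.2 and 39.1 in wild type. Its groups were far apart and the rise was 12.1-fold, with a log2 change of 3.59 ± 0.98 (SE, limma adjusted p = 0.0266). It was not called without either MYB76_OE array or wild type replicate 3 (up to 0.18), or against the other wild type arrays (log2 3.31, adjusted p = 0.0646). LEA4-5 had 77.3 and 70.7 in MYB76_OE against 5.08, 3.86 and 1.86 in wild type, and AT3G02480 had 129.7 and 108 in MYB76_OE against 2.36, 1.82 and 1.34 in wild type. With all wild type arrays at the floor they were at least 4.85-fold and 7.76-fold higher (limma adjusted p = 0.00428 and 0.0205). AT3G02480 was not called without either MYB76_OE array (0.161 and 0.112), nor was LEA4-5 without replicate 1 (0.0682). DI21, a drought-induced gene, rose 4.72-fold (limma adjusted p = 0.00251) and held in all 5 fits. DI21, LEA4-5 and AT3G02480 were also called against the other wild type arrays (log2 1.74, 2.13 and 2.81), but none of the 4 genes was with the plastid covariate (limma adjusted p 0.0941 to 0.298). COR15A, a cold-induced chloroplast protein, had 600 and 616 in MYB76_OE against 69.7, 441 and 10 in wild type. Its groups did not overlap, but wild type replicate 2 was close to MYB76_OE and the log2 change of 2.92 was not called (limma adjusted p = 0.165), though it was without that array (0.0415). COR15B and COR47, the other cold response genes, overlapped wild type, with log2 changes of 0.78 and 0.21 (limma adjusted p = 0.641 and 0.748).

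Genes of jasmonate metabolism that were tested were called higher, all 3 of them, in a list added after values were seen. Among nuclear probe sets 6.6% were called higher. AT5G05600 (JOX2) and JRG21 (JOX3) are oxygenases that inactivate jasmonic acid, and OPCL1 is a peroxisomal CoA ligase of its synthesis. AT5G05600 had 281 and 259.7 in MYB76_OE against 99.4, 14.5 and 13.3 in wild type, a rise of 9.36-fold (limma adjusted p = 0.0149) with 1 wild type array at the floor. JRG21 had 120 and 86.2 in MYB76_OE against 30.5, 19.3 and 13.4 in wild type (4.74-fold, limma adjusted p = 0.00908). OPCL1 had 653 and 682 in MYB76_OE against 192, 268 and 92.2 in wild type (3.97-fold, limma adjusted p = 0.0048). In each of these genes the groups were apart, but no call held without either MYB76_OE array (adjusted p 0.0525 to 0.13). Of the 3, JRG21 was called against the other wild type arrays (log2 2.12, limma adjusted p = 0.0189), and OPCL1 (1.26, 0.0805) and AT5G05600 (1.67, 0.281) were not. Against those arrays 1.34% of nuclear probe sets were called higher. With the plastid covariate OPCL1 and AT5G05600 were called (limma adjusted p = 0.0185 and 0.0143), and JRG21 was not (0.0755).

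Of the 12 largest called rises of nuclear genes with an array of each group above its floor, 3 belong to none of these groups. AT3G05400, a sugar transporter of the ERD6 family, had 712.5 and 690.1 in MYB76_OE against 7.77, 13.1 and 3.35 in wild type. With 2 wild type arrays at the floor it was at least 45.6-fold higher (limma adjusted p = 8.36e-07). AT1G21440, of the phosphoenolpyruvate mutase family, had 6726 and 5989 in MYB76_OE against 814, 922 and 483 in wild type (8.9-fold, limma adjusted p = 9.29e-06). AT5G12110, a subunit of elongation factor 1B, had 1300 and 1277 in MYB76_OE against 217, 262 and 64.5 in wild type (8.35-fold, limma adjusted p = 0.000964). None of the 3 had overlapping groups, and all 3 held in every fit without 1 array, against the other wild type arrays and with the plastid covariate. Among probe sets without a listed gene, 246884_at (81.6-fold) and 248676_at (64.9-fold) rose most.

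Of the 443 nuclear falls, 67 were also called against the other wild type arrays. MSRB6, a methionine sulfoxide reductase and relative of the strongly raised MSRB5, fell to 57.1 and 38.9 in MYB76_OE, against 524, 1601 and 394 in wild type. The log2 change was -3.88 ± 0.72 (SE), or 14.7-fold (limma adjusted p = 0.00308), with an adjusted p of 0.0516 without MYB76_OE replicate 2, and it was also called against the other wild type arrays (-2.9, limma adjusted p = 0.0265). The other 3 tested methionine sulfoxide reductases, MSRB9, MSRB3 and MSRA5, were not called (log2 -0.07, -0.25 and -0.53). AT5G03350, a legume lectin family gene, fell to 226.9 and 175 in MYB76_OE, against 1440, 1666 and 1030 in wild type (6.78-fold, limma adjusted p = 9.01e-05), and by nearly as much against the other wild type arrays (-2.62). AT1G19960, AT3G04210 (a TIR domain gene) and AT4G38550 had log2 changes of -2.7, -3.09 and -2.76 and were likewise called there (-2.02, -1.75 and -2.18). AT4G38550 had an adjusted p of 0.052 without MYB76_OE replicate 2. AT2G33850, AT1G67870 and AT5G62280 were lower by log2 changes of -3.27, -3.19 and -2.89 (limma adjusted p up to 0.00509), and AT1G67870 was not called without MYB76_OE replicate 2 (0.0771). These 3 were not called against the other wild type arrays (-1.63, -1.87 and -0.81, limma adjusted p = 0.0685, 0.115 and 0.372). Of these 8 falling genes AT4G38550 alone was called with the plastid covariate (limma adjusted p = 0.0185), while MSRB6 changed by -1.3 (0.728), AT5G03350 by -2.75 (0.106), AT1G19960 by -2.49 (0.219) and AT3G04210 by -4.08 (0.0583).

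Of the trichome patterning and endoreduplication genes, a list added after values were seen, 3 of 5 tested were called lower, where 5.21% of nuclear probe sets were. TRY, a single-repeat MYB that represses trichome formation, had 21.6 and 25.9 in MYB76_OE against 166, 113.5 and 138 in wild type. It was 5.81-fold lower (limma adjusted p = 0.000182), held in all 5 fits without 1 array, and was called against the other wild type arrays (-1.46, limma adjusted p = 0.0154). SIM, a cyclin-dependent kinase inhibitor of developing trichomes, had 36.8 and 46.1 in MYB76_OE against 113, 106 and 119 in wild type (2.74-fold lower, limma adjusted p = 0.00314, and 0.0693 without MYB76_OE replicate 1), and just missed the threshold against the other wild type arrays (-0.96, 0.0517). BRK1, an actin regulator of the SCAR complex, was 1.86-fold lower (limma adjusted p = 0.0145), not called without either MYB76_OE array (0.0612 and 0.173) or against the other wild type arrays (-0.68, 0.084). GIS and SPK1, the remaining tested members, were at log2 -0.1 and 0.18 and not called. None of TRY, SIM and BRK1 was called with the plastid covariate (limma adjusted p 0.0933 to 0.943).

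CC-type glutaredoxins, small redox proteins of which some respond to nitrate, had lower levels than in WT_MYB29_MYB76. Of 15 tested genes, in a list added after values were seen, 6 were called lower and 0 higher by limma (9 at an unadjusted p under 0.05), with a median of -1.14 on the log2 scale. Over all nuclear probe sets 5.21% were called lower, and 2375 of 8498 had an unadjusted p under 0.05. AT2G47880 had 50.7 and 46.1 in MYB76_OE against 605, 476 and 655 in wild type, an 11.9-fold lower level (limma adjusted p = 6.75e-05). AT5G18600 had 307 and 307 in MYB76_OE against 1257, 1414 and 1961 in wild type (4.94-fold lower, limma adjusted p = 0.00055), and AT1G06830 was 5.71-fold lower (limma adjusted p = 0.000535). AT3G62950, AT4G15660 and AT2G30540 were called as well, but not without either MYB76_OE array (adjusted p 0.052 to 0.218), and AT2G30540 also not without wild type replicate 1 or 3 (0.0788 and 0.118). Against the other wild type arrays these 6 genes had log2 changes between -1.28 (AT1G06830) and 0.58 (AT2G30540), none of them called. With the plastid covariate none was called either (limma adjusted p 0.087 to 0.63). The other wild types were unlike each other: AT2G47880 had a mean signal of 48.4 in MYB76_OE, 206.6 in WT_ATR1_MYB51 and 28 in WT_miR. For AT5G18600 these means were 307, 623.5 and 83. GRX480 was the 1 glutaredoxin called against the other wild type arrays, at -2.09. Its log2 change against its own wild type was 0.21 (limma adjusted p = 0.81).

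The SWEET sugar transporters were likewise lower in part. Of 10 tested genes 4 were called lower, where 5.21% of nuclear probe sets were. SWEET11, which exports sucrose from leaf phloem parenchyma, had 466 and 418 in MYB76_OE against 1985, 1172 and 3819 in wild type, 4.69-fold lower (limma adjusted p = 0.00208). SWEET2 (3.56-fold), SWEET13 (3.46-fold) and SWEET1 (1.71-fold) were lower with limma adjusted p between 0.00812 and 0.0316, and these 3 were not called without either MYB76_OE array (adjusted p up to 0.256). SWEET1 was also lost without wild type replicate 1 or 3 (0.0854 and 0.055), and SWEET13 without replicate 2 or 3 (0.058 and 0.0762). Against the other wild type arrays SWEET11 had a log2 change of 0.31, SWEET13 of 0.01 and SWEET2 of -0.79, none called, and SWEET1 was called at -1.1 (limma adjusted p = 0.00548). Those arrays were unlike each other. SWEET11 had a mean signal of 441.9 in MYB76_OE, 1178 in WT_ATR1_MYB51 and 110.5 in WT_miR. For SWEET13 these means were 47.3, 69.5 and 33.6, and for SWEET2 261.4, 886.5 and 237.4. None of the 4 was called with the plastid covariate (0.144 to 0.936). AT4G25780, a CAP superfamily gene, and AT1G30250 fell 11.3-fold and 10.9-fold (limma adjusted p = 0.000622 and 0.000757, and 0.161 and 0.118 with the plastid covariate). Their log2 changes against the other wild type arrays were -0.93 and -1.02, and not called. AT4G25780 had a mean signal of 32.3 in MYB76_OE, 152.7 in WT_ATR1_MYB51 and 23.75 in WT_miR. For AT1G30250 these means were 96.11, 544.9 and 81.82. AT2G07707, in the mitochondrial insertion of chromosome 2, was 8.4-fold lower by a probe set that can also bind the organelle copy, and its value is uncertain.

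**Figure D4:**
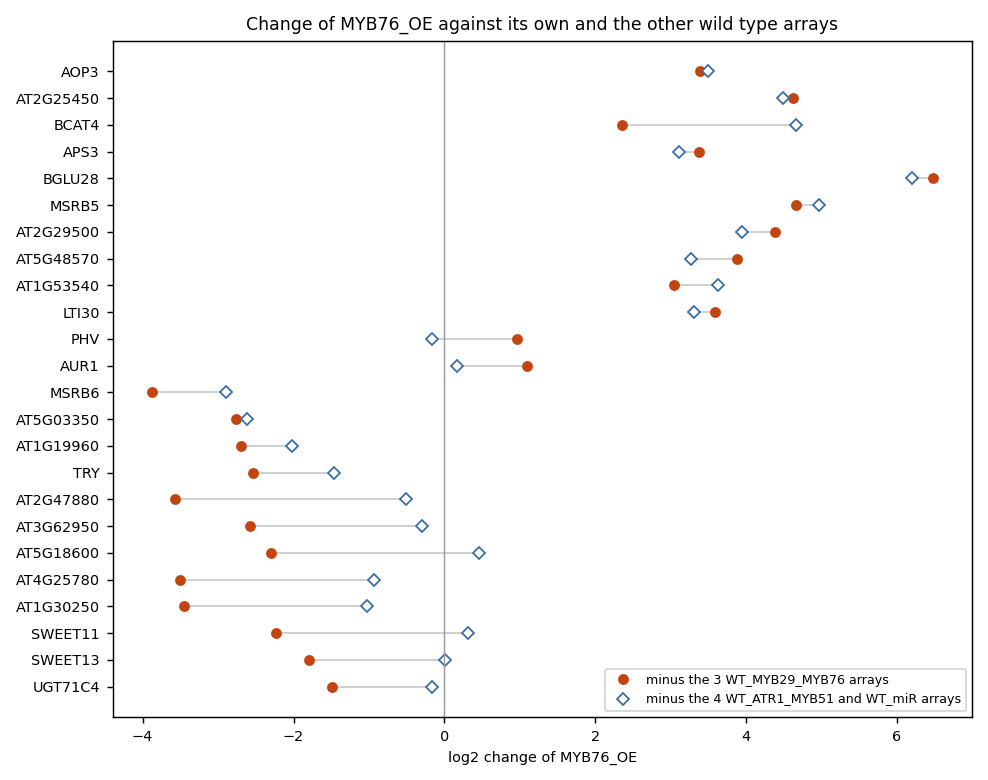
Log2 change of MYB76_OE (x axis) minus the 3 WT_MYB29_MYB76 arrays (filled circles) and minus the 4 other wild type arrays (open diamonds) for 24 genes discussed in the text (rows), chosen with their values known. For glucosinolate, sulfur and heat shock genes both marks stand far right of 0. For the glutaredoxins and SWEET genes drawn, PHV and AUR1 the diamonds lie between -0.51 and 0.46. SWEET2 (-0.79) and SWEET1 (-1.1), which are not drawn, lie outside this range. So do the called glutaredoxins that are not drawn, AT4G15660 (-0.74), AT1G06830 and AT2G30540.

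Of 3 tested genes of cell division 2 were called higher against WT_MYB29_MYB76, and of 3 tested genes of leaf polarity also 2. Among nuclear probe sets 6.6% were called higher. Against the other wild type arrays no gene of either list was called. The Aurora kinases AUR1 (646 and 607.5 in MYB76_OE against 425.5, 270.4 and 221.5 in wild type) and AUR2 rose 2.13-fold and 2.27-fold (limma adjusted p = 0.0136 and 0.0386). PHV, a regulator of the upper leaf side, had 403 and 393 in MYB76_OE against 207, 199 and 209.7 in wild type and rose 1.94-fold (limma adjusted p = 0.0104). YAB3, of the lower leaf side, was 1.78-fold higher (limma adjusted p = 0.0494). None of the 4 held without either MYB76_OE array (adjusted p 0.0858 to 0.251), YAB3 in no fit without 1 array, and AUR2 not without wild type replicate 3 (0.121). Against the other wild type arrays their log2 changes were 0.17, -0.14, -0.17 and -0.08, none called, and the plastid covariate left none called (limma adjusted p 0.224 to 0.887). AUR1 had a mean signal of 626.9 in MYB76_OE, 392.7 in WT_ATR1_MYB51 and 805.7 in WT_miR, so its small change averages opposite differences. AUR2 and PHV also lay above WT_ATR1_MYB51 and below WT_miR. The remaining tested members, AUR3 (log2 0.31, limma adjusted p = 0.475) and YAB5 (0.17, 0.658), overlapped WT_MYB29_MYB76 and were not called.

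Photosynthesis and hormone response genes of the nucleus gave no calls, in lists of at most 13 tested genes and against 11.8% called over all nuclear probe sets. The 8 tested nuclear photosynthesis genes had log2 changes from -0.51 to -0.08, with 0 called by limma and 0 at an unadjusted p under 0.05. LHCB4.1, a light-harvesting protein, had 12470 and 11020 in MYB76_OE against 10820, 13480 and 13140 in wild type, with overlapping groups. The 8 tested auxin response genes ranged from -0.7 to 0.79, and the 7 of salicylate and defence from -1.12 to 0.41, also with 0 limma calls and 0 at an unadjusted p under 0.05. Of 13 expansin and xyloglucan genes 0 were called by limma and 2 had an unadjusted p under 0.05. When the other wild type arrays were the control, 2 salicylate and defence genes and 1 expansin or xyloglucan gene were called lower, and 0 photosynthesis and 0 auxin response genes were called by limma (1 and 2 at an unadjusted p under 0.05).

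MYB76_OE was compared directly with MYB29_OE to find where the lines of the 2 aliphatic regulators differ. The limma test called 4 of the 15630 probe sets (0.0256%). In MYB76_OE 3 were higher (0.0192%) and 1 was lower (0.0064%). Calls were made for 0 of the 8498 nuclear probe sets (0%), of which 265 had an unadjusted p under 0.05. The 4 called probe sets have no listed gene, and are named here after their values were seen. 250589_at had 2518 and 2286 in MYB76_OE against 309 and 289.6 in MYB29_OE, a log2 difference of 3 ± 0.39 (SE, limma adjusted p = 0.0078), beside 57.6, 49.6 and 68 in wild type. 250598_at ran the other way, with 103 and 129 in MYB76_OE against 1605 and 1955 in MYB29_OE (-3.94 ± 0.34, SE, limma adjusted p = 6.43e-05), beside 71, 78.3 and 82.4 in wild type. 266142_at had 630 and 594 in MYB76_OE against 11 and 5.15 in MYB29_OE, both at the floor (at least 5.49 on the log2 scale, limma adjusted p = 0.0347). Its wild type values were 36, 19.2 and 32.2. 259381_s_at had 526 and 472 in MYB76_OE against 181 and 113 in MYB29_OE (1.8 ± 0.27, SE, limma adjusted p = 0.026), beside 360, 360 and 238 in wild type. Against wild type this probe set was called lower in MYB29_OE (log2 -1.13, limma adjusted p = 0.00745). It was not called in MYB76_OE (0.67, 0.082). The count was 1 without either MYB76_OE array or without MYB29_OE replicate 2, and 21 without MYB29_OE replicate 1.

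As both lines share their wild type arrays, their changes are set side by side only. On the log2 scale BCAT4 changed by 2.36 in MYB76_OE and 2.55 in MYB29_OE, and AOP3 by 3.39 in MYB76_OE and 3.36 in MYB29_OE. AT2G25450 changed by at least 4.62 in MYB76_OE and 4.15 in MYB29_OE, and APS3 by 3.38 in MYB76_OE and 3.49 in MYB29_OE. None of these differed between the lines by the test, with a difference of 0.03 ± 0.37 (SE) for AOP3 and of 0.47 ± 0.33 (SE) for AT2G25450 (limma adjusted p = 1 for each). The dehydration and jasmonate genes had wider differences that were not called either. LTI30 changed by 3.59 in MYB76_OE and 0.12 in MYB29_OE, a difference of 3.47 ± 1.07 (SE, limma adjusted p = 0.994). JRG21 changed by 2.25 in MYB76_OE and by -0.66 in MYB29_OE (difference 2.9, limma adjusted p = 0.107). LEA4-5 changed by at least 2.28 in MYB76_OE and by -0.17 in MYB29_OE (difference 2.44, limma adjusted p = 0.134). As all wild type arrays were at the floor for LEA4-5, its -0.17 is not a measured fall.

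Against the indole regulators the change of MYB76_OE was tested as a difference of changes, each line minus its own wild type. Between MYB76_OE and ATR1_OE 2824 of all probe sets differed (18.1%, 11.6% higher and 6.47% lower) and 1455 nuclear ones (17.1%, 11.4% higher and 5.77% lower). Between MYB76_OE and MYB51_OE 598 of all probe sets differed (3.83%, 2.12% higher and 1.7% lower) and 294 nuclear ones (3.46%, 2.02% higher and 1.44% lower). Of the aliphatic genes, the side chain genes differed from both lines. AOP3 changed by 3.39 in MYB76_OE, against -0.26 in ATR1_OE and 0.32 in MYB51_OE, differences of 3.65 and 3.07 (limma adjusted p = 0.000418 and 0.00373). AT2G25450 differed by 3.57 from ATR1_OE and by 4.96 from MYB51_OE (limma adjusted p = 0.00021 and 1.32e-05). For this gene both MYB51_OE and both WT_ATR1_MYB51 arrays were at the floor. Its -0.35 in MYB51_OE is thus not a measured fall, yet it enters the 4.96, beside a change of 4.62 in MYB76_OE. For BCAT4, at 2.36 in MYB76_OE against 0.17 in ATR1_OE and 0.24 in MYB51_OE, the differences of 2.18 and 2.11 were not called (limma adjusted p = 0.165 and 0.281). No difference was called for the core genes. AT2G31790 changed by 1.93 in MYB76_OE, against 2.07 in ATR1_OE and 2.05 in MYB51_OE (differences -0.14 and -0.12), and GSTU20 by 1.72 in MYB76_OE, against 1.47 in ATR1_OE and 0.66 in MYB51_OE. Of the methionine genes AT1G72810 rose more in MYB76_OE (1.74) than in ATR1_OE (0.16) and MYB51_OE (0.1), with limma adjusted p = 0.00906 and 0.0237 for the differences.

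The 1 tested gene of tryptophan synthesis changed less in MYB76_OE. AT2G04400 changed by 0.58 in MYB76_OE, against 2.92 in ATR1_OE and 2.83 in MYB51_OE, differences of -2.34 and -2.25 (limma adjusted p = 0.000455 and 0.00121). UGT74B1, of the shared core, changed by 1.32 in MYB76_OE, against 3 in ATR1_OE and 2.92 in MYB51_OE (-1.68, limma adjusted p = 0.0403, and -1.6, adjusted p = 0.105). APS3 and TAAC rose in all of these lines. APS3 changed by 3.38 in MYB76_OE, against 4.51 in ATR1_OE and 4.11 in MYB51_OE, and TAAC by 2.49 in MYB76_OE, against 2.89 in ATR1_OE and 2.86 in MYB51_OE, with no difference called (limma adjusted p from 0.0937 to 0.768). MSRB5 rose less in MYB76_OE (4.66) than in ATR1_OE (7, limma adjusted p = 0.0362), and BGLU28 more (6.48) than in MYB51_OE (3.8, limma adjusted p = 0.00415). MSRB5 did not differ by call from MYB51_OE (5.75, limma adjusted p = 0.43), nor BGLU28 from ATR1_OE (6.48, limma adjusted p = 0.996).

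Of the 12 called heat shock and chaperone genes, 8 differed in change from both indole lines. They were chosen by their call in MYB76_OE minus WT_MYB29_MYB76, which is also part of these contrasts, so calls were favoured. Of all 561 nuclear probe sets called higher in MYB76_OE, 334 were called in the contrast with ATR1_OE and 137 in that with MYB51_OE. AT2G29500 changed by at least 4.38 in MYB76_OE, against -0.52 in ATR1_OE and -0.8 in MYB51_OE, differences of 4.9 and 5.18 (limma adjusted p = 3.59e-05 and 1.87e-05). Both MYB51_OE arrays and 1 of the 2 WT_ATR1_MYB51 arrays were at the floor for it, so the -0.8 depends on the floor. The same held for AT1G53540 (-0.66 in MYB51_OE). AT1G53540, AT5G48570, AT5G51440, AT5G37670, ATHSP22.0, Fes1A and AT2G20560 also differed from both lines, with limma adjusted p up to 0.0302. AT1G54050, AT1G52560 and Hop3 differed from ATR1_OE (limma adjusted p = 0.00953, 0.0289 and 0.0122) but not by call from MYB51_OE (0.0604, 0.0763 and 0.0838). For AT1G52560 all arrays of ATR1_OE, MYB51_OE and WT_ATR1_MYB51 were at the floor. Its change of -0.38 in ATR1_OE is thus not a measured fall, yet it enters the difference of 1.96. For Hop3 both ATR1_OE arrays were at the floor. Cpn60beta3, which rose in ATR1_OE (1.32) and MYB51_OE (1.21) as well, differed from neither by call (limma adjusted p = 0.182 and 0.209). In MYB29_OE, which shares the wild type of MYB76_OE, AT2G29500 changed by 4.06, AT1G53540 by 2.92 and AT5G48570 by 3.16. Among the dehydration and jasmonate genes, likewise chosen by their call against WT_MYB29_MYB76, OPCL1, DI21, LEA4-5 and JRG21 differed from both indole lines (limma adjusted p 0.00109 to 0.0372). LTI30 differed from neither ATR1_OE nor MYB51_OE by call (limma adjusted p = 0.273 and 0.103), nor did AT5G05600 (0.118 and 0.0932). LTI30 had a mean signal of 607.5 in ATR1_OE (SD 773.5) and 686.8 in MYB76_OE.

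**Figure D5:**
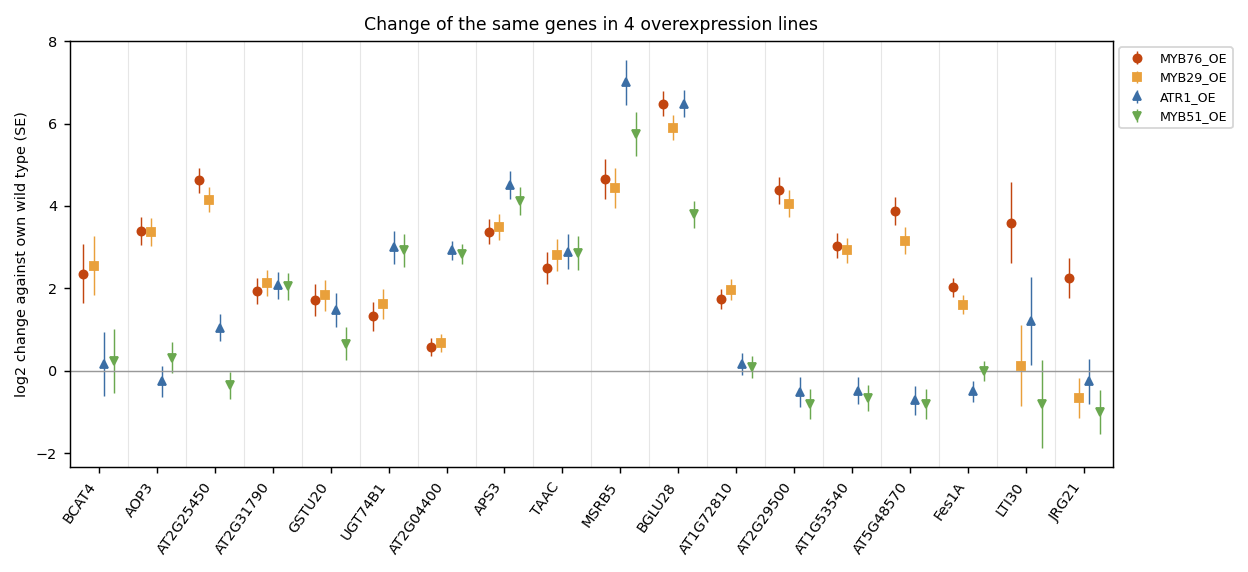
Log2 change against the own wild type, with its SE, of 18 genes in MYB76_OE, MYB29_OE, ATR1_OE and MYB51_OE (left to right in each column). BCAT4, AOP3 and the heat shock genes are high in MYB76_OE and MYB29_OE, which share wild type arrays, AT2G04400 is high in ATR1_OE and MYB51_OE, and APS3, TAAC, MSRB5 and BGLU28 are high in all 4 lines.

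Plastid-encoded transcripts are kept apart. Of their 68 probe sets limma called 54 lower in MYB76_OE than in WT_MYB29_MYB76 and 0 higher, where 5.6% of all probe sets were called lower. Their median change was -4.28 on the log2 scale. The ribosomal protein transcript rps4 had 78.7 and 53.5 in MYB76_OE against 9571, 9377 and 7668 in wild type (136-fold lower, limma adjusted p = 2.01e-07). The transcripts rps3 and rps19 had log2 changes of -7.29 and -7.28, with 1 MYB76_OE array of each at the floor. At the other end petN, petD and rps14 had log2 changes of -1.41, -1.21 and -1, and none of them was called, petN only without wild type replicate 3 (limma adjusted p = 0.0498). Against the 4 other wild type arrays the plastid median was -0.34, with 0 probe sets called by limma and 0 at an unadjusted p under 0.05, and rps4 had a log2 change of -0.85.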

How the data were processed

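Transcripts of seedling shoots were measured on 19 arrays, 1 per sample, in 9 groups taken from the titles. The intensity values were deposited by the authors as linear MAS5 signals, per the submitters' processing notes, with no version given. Their 2% trimmed mean was about equal on every array, a scaling that holds array means equal by design. The number of arrays limits the precision. No batch or scan information is given in the sources used here.

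Each signal below its array's 20th percentile was raised to that floor and log2 was taken. Probe sets at or above the 40th percentile on at least 2 arrays were tested, without the 64 control probe sets, leaving 15630 of 22746. One linear model with 9 group means was fitted over all 19 arrays (limma 3.58.1 in R 4.3.3, moderated with an intensity trend, 10 residual and 5.62 prior degrees of freedom), with Benjamini-Hochberg adjustment over all tested probe sets and calls at an adjusted p under 0.05. The fit was tested on simulated data. Tables and figures were made with Python 3.11.15, pandas 2.3.3 and matplotlib 3.10.9.

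Genes were named by matching the platform annotation to RefSeq TAIR10.1: 8578 tested probe sets had 1 gene, 311 had several and 6741 were not listed and are unnamed here. Roles stated for genes are background knowledge. The comparison and the gene lists were chosen with earlier results of these data known, and 9 lists were added after their members' values had been seen. Named were all tested genes of the glucosinolate, tryptophan, sulfur and methionine lists, the 12 largest rises and falls of single nuclear genes without overlap, up to 6 called members of other lists, the 2 largest rises and falls without a listed gene, the 3 highest and lowest plastid-encoded genes, and up to 4 further genes each way from the contrasts between lines. Other members of the added lists are named after their values were seen. Alternatives were other floors, filters, scalings, array sets, controls, a plastid covariate, a replicate block and leaving out each array.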

Additional observations from a re-analysis of the deposited data

How the results depend on the processing

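Counts of calls for MYB76_OE minus WT_MYB29_MYB76 are given in the order all probe sets (1994), nuclear probe sets (1004) and gene list members (37). They were within 1.5 times of these under a 60th percentile filter, a floor at the 10th percentile, log2(signal + 16), no filter, no trend and quantile normalization. They were 655, 292 and 24 with the 5 arrays of the comparison alone, 1286 and 603 with the 7 arrays of the experiment, 520 and 249 against the other wild type arrays, 253, 115 and 14 against all 7 wild type arrays, and 166, 58 and 10 with plastid-encoded signal as a covariate. The 10 list members called with that covariate were all higher, so that the 12 lower calls were lost. Of 70 named results 60 were called as reported. With the covariate 39 lost their call and kept their sign, and 4 turned their sign. Among these 4 was AT2G07707, whose call was lost too (limma adjusted p = 0.991). Leaving out 1 array gave 386 to 2658, 157 to 1344 and 14 to 40, lowest without MYB76_OE replicate 1 and highest without wild type replicate 2. A fit that leaves 1 MYB76_OE array assumes that it varies like the other groups. The contrast with MYB29_OE (4 calls) gave 9 with no filter, 9 with no trend and 1 to 21 without 1 array. The contrast with ATR1_OE (2824) gave 453 with the plastid covariate and 1421 to 3596 without 1 array, and that with MYB51_OE (598) gave 85 and 113 to 1005. With no filter the median change of all probe sets was -0.13 on the log2 scale, against 0.05 as reported.

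The replicate numbers do not pair the arrays by any label, and deviations of same-numbered arrays correlated at -0.0379 and 0.0186. With the replicate block the counts were 1010, 458 and 21, with 3 for MYB29_OE, 2108 for ATR1_OE and 322 for MYB51_OE.

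Against the other wild type arrays the sign turned for PHV (-0.17), YAB3 (-0.08), AUR2 (-0.14), SWEET11 (0.31), SWEET13 (0.01), the unnamed 244981_at (0.22) and rps14 (0.31). For SWEET11 and SWEET13 the MYB76_OE mean lay below WT_ATR1_MYB51 and above WT_miR. For PHV and AUR2 it lay above WT_ATR1_MYB51 and below WT_miR. With the plastid covariate the sign turned for AT2G07707 (0.02), petN (3.86), petD (2.35) and rps14 (0.26). The cause was not tested.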

Other observations

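RNA polymerase and nuclear pore genes, in lists added after their values were seen, were called in part, where 11.8% of nuclear probe sets were called and 6.6% were called higher. NRPA2 and NRPC2, the second-largest subunits of RNA polymerases I and III, were higher in MYB76_OE by 1.23 and 1.09 on the log2 scale (limma adjusted p = 0.0262 and 0.0408), and NRPB9A was lower (-1.08, limma adjusted p = 0.0438), 3 of 12 tested. NRPA2 and NRPC2 were called without wild type replicate 2 and in no other fit without 1 array (adjusted p up to 0.251), and NRPB9A without wild type replicate 3 alone (up to 0.276). Of 4 nuclear pore and export genes 3 were called higher, SEH1H (0.89), NUP155 (0.84) and XPO1B (0.81), none of them without either MYB76_OE array (adjusted p 0.0984 to 0.273), nor SEH1H without wild type replicate 1 (0.0505) or XPO1B without replicate 1 or 3 (0.0731 and 0.141). Against the other wild type arrays those 3 had log2 changes of -0.24, 0.11 and 0.43, and were not called.

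Of 25 UDP-glycosyltransferases 3 were called higher and 2 lower, where 6.6% and 5.21% of all nuclear probe sets were. UGT85A7 rose 5.16-fold (limma adjusted p = 0.00953, lost without either MYB76_OE array, 0.104 and 0.0763) and had a log2 change of 3.81 against the other wild type arrays, and was called with the plastid covariate (0.0439). UGT71C4 fell in the comparison (-1.49, limma adjusted p = 0.00132) and was at -0.17 against the other wild type arrays. With the plastid covariate none of UGT71C4, the RNA polymerase genes and the nuclear pore genes above was called (limma adjusted p 0.278 to 0.978).

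Some genes differed in change between MYB76_OE and the indole lines without belonging to a list. AT3G16670 had 5412 and 5127 in MYB76_OE against 1375, 1540 and 2251 in wild type, a log2 change of 1.65, against -3.27 in ATR1_OE (difference 4.91, limma adjusted p = 0.000659). AT5G62280 changed by -2.89 in MYB76_OE, against 4.42 in ATR1_OE (difference -7.31, limma adjusted p = 1.13e-05).

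The artificial microRNA arrays also had high plastid-encoded signal, with medians of 9.9 and 10.88 in ATR1_like_miR and 10.37 and 9.46 in MYB28_like_miR, against 4.64 and 5.48 in WT_miR.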
